A study of Mus musculus with 52 samples.

Results

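The smooth muscle contractile programme was followed through 10 genes across 52 Affymetrix Mouse Gene 2.0 ST arrays of mouse bone marrow stromal cell cultures. The genes were Acta2, Tagln, Cnn1, Myocd, Lmod1, Actg2, Myh11, Des, Tpm2 and Hspb7, a list of symbols out of 22180 genes that had a probe set of their own, of which 14911 were tested. A probe set was used only if it was annotated to 1 of these symbols alone, and each of the 10 had exactly 1 such probe set. All 10 passed the filter on low values, which asked for at least 4 arrays above the median of the table, 4.05. Myocd lay above that median on 48 arrays and the other 9 genes on all 52. On build GRCm38.p6 the genes lie at chr19:34240336-34255585 (Acta2), chr9:45929628-45936058 (Tagln), chr9:22099221-22109221 (Cnn1), chr11:65173608-65269989 (Myocd), chr1:135324813-135368065 (Lmod1), chr6:83512909-83536251 (Actg2), chr16:14194527-14292188 (Myh11), chr1:75360292-75368579 (Des), chr4:43513726-43523583 (Tpm2) and chr4:141420779-141425310 (Hspb7).

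The cultures came from female C57BL/6J mice aged 8 weeks, with the marrow of 2 to 4 animals pooled for each experiment. The treated groups received Rosi (rosiglitazone at 100 nM, which activates PPARγ, the master regulator of adipocyte differentiation), LG268 (LG100268 at 100 nM, which activates RXR, with which PPARγ pairs on DNA), TBT (the organotin tributyltin at 80 nM), TPhP (triphenyl phosphate, used to slow the burning of plastics) or MEHP (a breakdown product of a phthalate plasticiser). The labels give no dose for TPhP and MEHP. Their controls received vehicle (DMSO, 0.1%). Treated and vehicle cultures were all in osteoinductive medium with ascorbate, β-glycerol phosphate, insulin and 10 nM dexamethasone from day 7 of culture, and were harvested 1 or 4 days later. A naive group was harvested before that medium was added. Each of the 13 groups held 4 arrays, 1 from each of the pools numbered 12, 15, 19 and 20. The replicates were thus pools of animals, with no genotype or transgene involved. An adjusted p weighs a difference against the spread within groups, which holds differences between pools and between arrays. The fit did not pair arrays by pool unless the text says that the pools were a block. These are mixed primary cultures: the mean log2 level of 12 macrophage markers lay between 9.12 and 10.80 over the 52 arrays. In such bulk RNA, fewer cells of a type and less RNA per cell cannot be told apart.

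Smooth muscle cells shorten by sliding myosin along filaments of specialised actins, and these genes encode the filaments, the proteins that bind and brace them, and a regulator that turns them on. Most are targets of serum response factor (SRF), which binds a DNA element called the CArG box and acts with a coactivator, either myocardin or the myocardin-related factors that monomeric actin holds outside the nucleus. Marrow stromal cells spread on plastic also express the programme, and Acta2 is widely used to mark mesenchymal progenitors and myofibroblasts.

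RefSeq promoter windows of 300 bases, from 250 before to 50 after the start site on build GRCm38.p6, were held for 6 of the 10 genes: Acta2, Cnn1, Lmod1, Des, Tpm2 and Hspb7. A CArG box occurred in 1.63% of 32851 windows of that length, a CArG box with 1 departure from its A/T core in 8.5%, and CATTCC, the letters bound by TEAD factors, in 14.7%, on either strand. No window of the 6 held an exact CArG box. The windows of 3 genes are shown, Acta2 because it held the near matches, Cnn1 because its level ranged the most over the groups, and Hspb7 because it departed from the others over time. They lie at chr19:34255324-34255623 on the minus strand for Acta2, chr9:22099003-22099302 on the plus strand for Cnn1 and chr4:141420529-141420828 on the plus strand for Hspb7. Capitals mark the CArG boxes with 1 departure and CATTCC or its reverse complement.
Acta2: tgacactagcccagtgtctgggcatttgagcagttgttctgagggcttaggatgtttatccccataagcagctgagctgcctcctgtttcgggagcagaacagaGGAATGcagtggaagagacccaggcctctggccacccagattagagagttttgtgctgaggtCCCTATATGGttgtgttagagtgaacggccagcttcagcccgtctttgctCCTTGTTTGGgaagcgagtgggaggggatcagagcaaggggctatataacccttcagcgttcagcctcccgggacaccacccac
Cnn1: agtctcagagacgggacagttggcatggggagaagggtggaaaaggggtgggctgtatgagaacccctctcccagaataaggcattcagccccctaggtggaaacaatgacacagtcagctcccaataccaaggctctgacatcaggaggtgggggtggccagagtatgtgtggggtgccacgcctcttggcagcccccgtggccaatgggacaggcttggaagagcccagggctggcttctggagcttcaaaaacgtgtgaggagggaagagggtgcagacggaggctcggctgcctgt
Hspb7: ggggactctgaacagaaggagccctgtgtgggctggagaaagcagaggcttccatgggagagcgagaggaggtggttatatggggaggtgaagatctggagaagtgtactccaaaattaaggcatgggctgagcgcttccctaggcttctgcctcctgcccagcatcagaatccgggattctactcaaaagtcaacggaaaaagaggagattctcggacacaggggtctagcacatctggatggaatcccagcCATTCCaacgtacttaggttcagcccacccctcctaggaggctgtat

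In Acta2 the near matches began 84 and 34 bases before the start site of the window, and the TEAD letters 146 bases before it on the opposite strand. The gene span given above for Acta2 reaches to 34255585, upstream of that start site and of these motifs. Their positions therefore depend on the start site used. Cnn1, Des and Tpm2 held none of the 3 motifs in this window, Lmod1 held the TEAD letters 130 bases before its start site on the opposite strand, and Hspb7 held them just after its start site. No window was held for Tagln, Myocd, Actg2 or Myh11, which were not analysed here for motifs. A match is a string of letters, not a measured binding site.

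A few arrays stood apart in these genes before any comparison was made. In the day 4 vehicle group, the array of pool 12 read 6.00 for Cnn1, against 8.02, 9.42 and 9.06 in pools 15, 19 and 20 (all levels are log2 values as deposited). Its Acta2 was 10.49, against 11.50, 12.10 and 12.07 in the other pools. The same array was also low in the mean of 12 adipocyte markers (6.79, against 7.88 to 8.60), 11 osteoblast markers (7.45, against 8.62 to 9.16) and 12 stromal markers (8.71, against 9.14 to 9.54). In the day 4 TPhP group the array of pool 12 was high in Tpm2 (7.63, against 5.92 to 6.29) and in osteoblast markers (8.42, against 6.64 to 7.63), and low in 9 neutrophil markers (4.67, against 7.29 to 8.80). The day 4 Rosi array of pool 15 was low in Myh11 (4.79, against 5.85 to 5.99) and Lmod1 (4.99, against 5.65 to 5.75), and high in macrophage markers (10.38, against 9.12 to 9.44). The day 4 vehicle SD of Cnn1 was 1.54, which was 5.10 times the median SD of the other 12 groups, and that of Acta2 was 0.75, or 9.41 times. This spread did not come from pool 12 alone. Pool 15 also read below pools 19 and 20, at 8.02 against 9.42 and 9.06 for Cnn1 and 11.50 against 12.10 and 12.07 for Acta2. A shared estimate of the spread over 13 groups understates it there. That estimate also carries the day 4 vehicle spread into the SEs of all other comparisons, where most groups were tighter. For Acta2 the pooled SD was 0.26, beside a median SD of 0.08 in the other 12 groups. A gene that did not pass in those comparisons may therefore owe this in part to the shared SE. Beside the results that use day 4 vehicle stand the counts, calls and sizes that changed when its pool 12 array was left out. Leaving that array out does not remove the spread between the other pools.

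**Figure D1:**
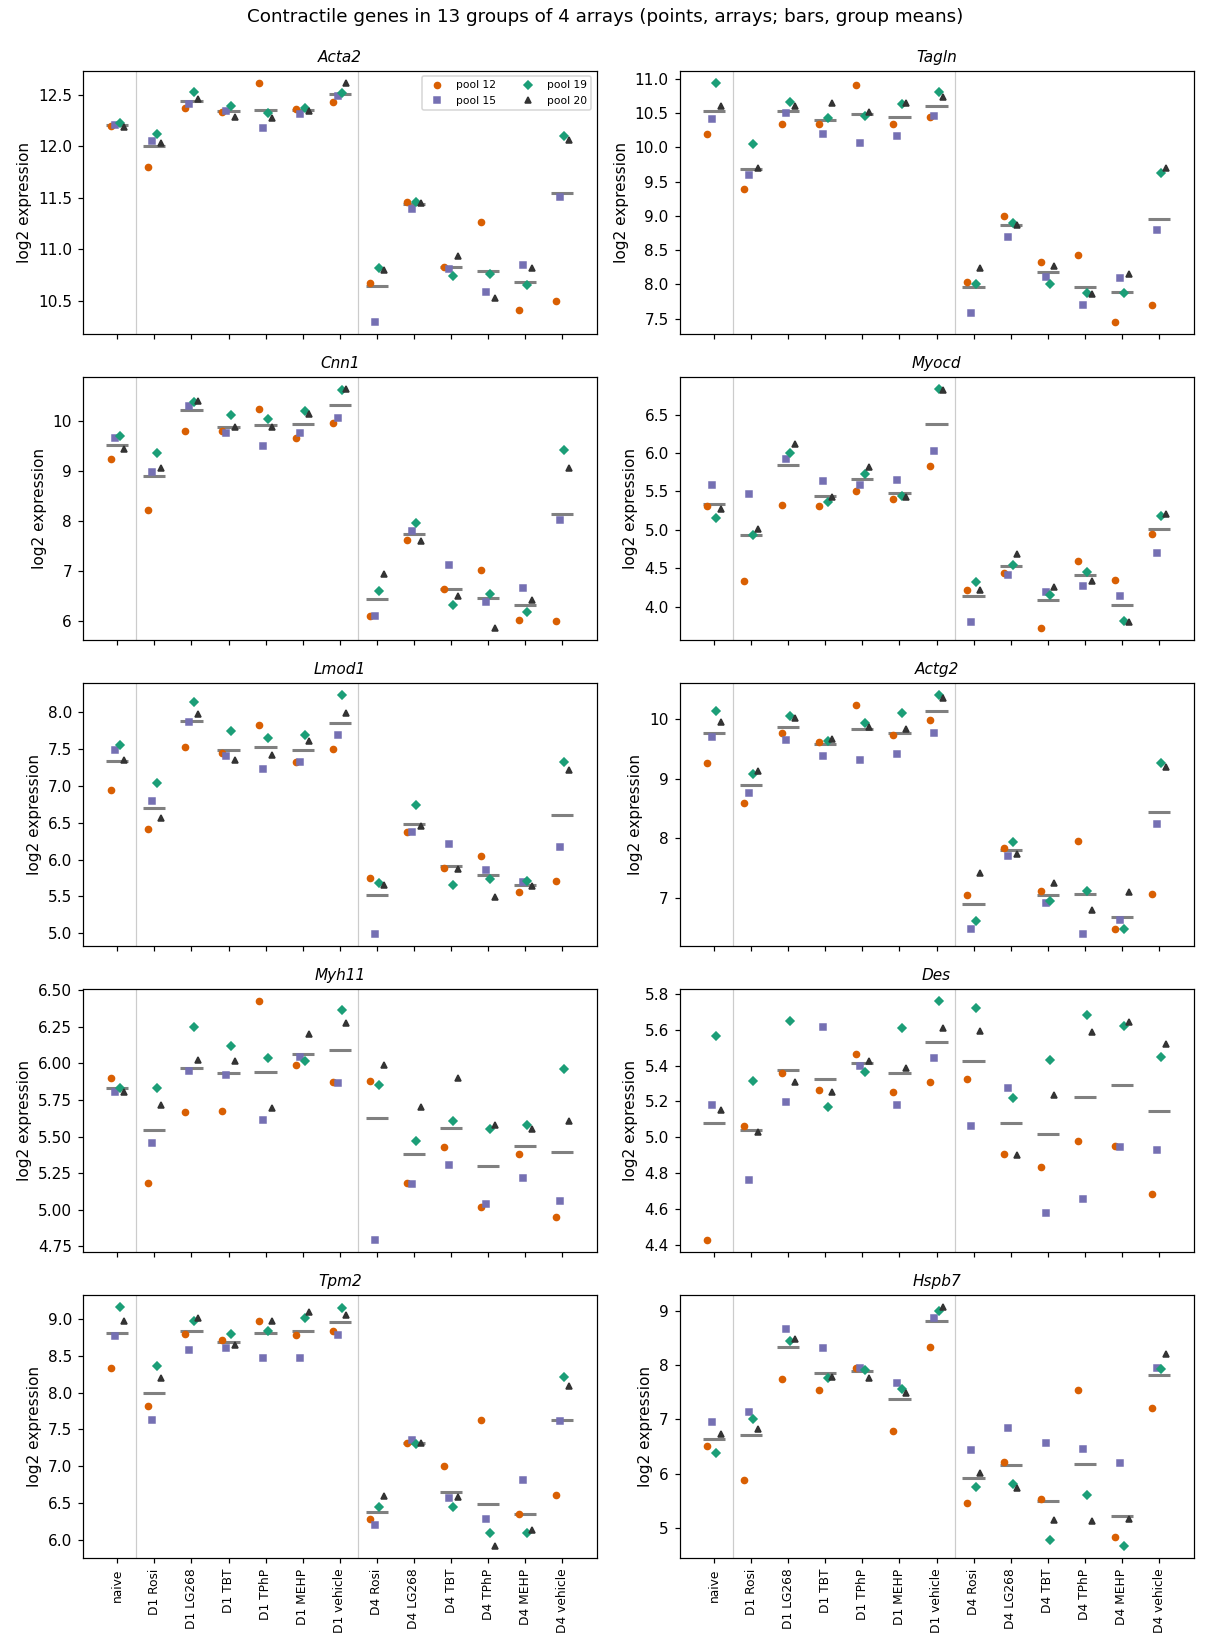
Log2 level (vertical axis) of each contractile gene in naive cells and in the day 1 (D1) and day 4 (D4) groups (horizontal axis); points are arrays coloured by pool and bars are means of 4 arrays. For Acta2, Tagln, Cnn1, Myocd, Lmod1, Actg2 and Tpm2 the day 4 groups of Rosi, TBT, TPhP and MEHP sit lowest, Myh11 and Des span less than 1 log2 unit between group means, and the day 4 vehicle array of pool 12 is the lowest of its group for every gene but Myocd.

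The 10 genes differed widely in how far they moved. The range between the highest and the lowest of the 13 group means was 16.1-fold for Cnn1 (calponin, an actin-binding brake on myosin), 12.1-fold for Hspb7 (a small heat shock protein best known in heart muscle) and 10.9-fold for Actg2 (smooth muscle γ-actin). It was 6.56-fold for Tagln (transgelin, an actin-bundling protein), 6.06-fold for Tpm2 (β-tropomyosin, which lines the actin filament), 5.13-fold for Myocd (myocardin, the SRF coactivator) and 5.13-fold for Lmod1 (leiomodin, which starts new filaments). Acta2 (smooth muscle α-actin) ranged 3.65-fold. Myh11 (smooth muscle myosin heavy chain) ranged 1.74-fold and Des (desmin, an intermediate filament protein) 1.43-fold. Both read low, from 4.79 to 6.43 and from 4.43 to 5.76 over the arrays, beside a 75th percentile of the table of 6.34. The highest group mean of 9 genes was that of day 1 vehicle cultures, and Lmod1 had it in day 1 LG268 cultures (7.88 ± 0.26, SD, n = 4), 0.02 above day 1 vehicle (7.86 ± 0.33). The lowest mean belonged to day 4 MEHP for Tagln, Cnn1, Myocd, Actg2, Tpm2 and Hspb7, to day 4 Rosi for Acta2 and Lmod1, to day 4 TPhP for Myh11 and to day 4 TBT for Des.

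The full order for Cnn1 began with day 1 vehicle (10.32 ± 0.37), LG268 (10.22 ± 0.29), MEHP (9.94 ± 0.27), TPhP (9.92 ± 0.32) and TBT (9.89 ± 0.16), then naive cells (9.51 ± 0.21) and day 1 Rosi (8.90 ± 0.49). It ended with the day 4 groups, namely vehicle (8.13 ± 1.54), LG268 (7.74 ± 0.16), TBT (6.64 ± 0.34), TPhP (6.45 ± 0.48), Rosi (6.42 ± 0.42) and MEHP (6.31 ± 0.28). Of the 12 steps between neighbours in that order, 3 exceeded the pooled SD of 0.53: naive to day 1 Rosi, day 1 Rosi to day 4 vehicle, and day 4 LG268 to TBT, which was the widest at 1.11. Acta2, Tagln, Lmod1, Actg2 and Tpm2 followed nearly the same order, with 2 to 4 of 12 steps over their pooled SD. Acta2 ran from 12.51 ± 0.08 in day 1 vehicle through 12.20 ± 0.01 in naive cells to 10.64 ± 0.24 in day 4 Rosi, with its widest step, 0.61, again between day 4 LG268 and TBT.

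Myocd was ordered nearly as Cnn1 was, and Hspb7 was ordered differently. Myocd was highest in day 1 vehicle (6.38 ± 0.53), 0.54 above the next group, day 1 LG268 (5.84 ± 0.35). Its day 1 Rosi mean (4.94 ± 0.47) lay just under day 4 vehicle (5.00 ± 0.24), a step of 0.07 beside a pooled SD of 0.27. Hspb7 was higher in day 4 vehicle (7.82 ± 0.44) than in day 1 MEHP (7.37 ± 0.40), day 1 Rosi (6.71 ± 0.57) and naive cells (6.64 ± 0.25), and 1 of its 12 steps exceeded the pooled SD of 0.54. No step of Myh11 or Des exceeded their pooled SDs of 0.30 and 0.31, so the order of their groups is not resolved.

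After 1 day in osteoinductive medium with vehicle, Hspb7 and Myocd rose relative to naive cells. Hspb7 read 8.33, 8.86, 8.99 and 9.07 in day 1 vehicle cultures of pools 12, 15, 19 and 20, against 6.50, 6.94, 6.39 and 6.73 in naive cells. Myocd read 5.84, 6.02, 6.84 and 6.82 in day 1 vehicle cultures, against 5.31, 5.59, 5.15 and 5.27 in naive cells. For both genes every vehicle array lay above every naive array, as it did for 4 of the 10 genes and for 15.1% of all tested genes. The differences were 2.17 ± 0.37 for Hspb7 (log2 ± SE, 4.51-fold, limma adjusted p = 4.8e-05) and 1.05 ± 0.19 for Myocd (2.07-fold, adjusted p = 0.000126). These were 2 of the 10 genes higher and 0 lower, where 12.9% of all tested genes were higher and 4.86% lower. The other 8 differences ran from 0.07 for Tagln to 0.81 for Cnn1, all positive, and none of them passed (5 of 10 genes had an unadjusted p under 0.05). Des (0.45 ± 0.21) had an adjusted p of 0.147, and 0.0415 with the pools as a block in the limma fit. Vehicle, medium and a day in culture cannot be told apart in this comparison.

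Between day 1 and day 4 of vehicle most of the 10 genes fell. Tagln read 7.70, 8.79, 9.63 and 9.70 in day 4 vehicle cultures, against 10.44, 10.45, 10.81 and 10.74 in day 1 vehicle cultures. Actg2 read 7.07, 8.23, 9.27 and 9.19 at day 4, against 9.98, 9.77, 10.40 and 10.35 at day 1. Tpm2 read 6.61, 7.61, 8.21 and 8.08 at day 4, against 8.83, 8.77, 9.15 and 9.05 at day 1. In all 3 genes no day 4 array reached the day 1 arrays, which held for 8 of the 10 genes and for 9.86% of all tested genes. Of the 10, 8 fell and none rose (8.29% of all tested genes were lower and 4.6% higher) and all 10 differences were negative, with a median of -1.29 beside 0.01 over all genes. Cnn1 had the largest, -2.19 ± 0.36 (4.57-fold lower, limma adjusted p = 6.57e-05), followed by Actg2 at -1.69 ± 0.29 (adjusted p = 0.000125) and Tagln at -1.66 ± 0.24 (adjusted p = 1.19e-05). Myocd fell by 1.37 (SE 0.19, adjusted p = 4.71e-06), and Acta2 fell by 0.97 (SE 0.18, adjusted p = 0.000229). With the day 4 vehicle array of pool 12 left out, the fall in Cnn1 was -1.48 ± 0.27 (2.8-fold), and Myocd came next at -1.35 ± 0.21, ahead of Tagln (-1.24 ± 0.20) and Actg2 (-1.23 ± 0.26).

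Des (-0.39 ± 0.21, adjusted p = 0.258) and Hspb7 (-0.99 ± 0.37, adjusted p = 0.066, or 0.0254 with the pools as a block) did not pass between the 2 vehicle days. Without the day 4 vehicle array of pool 12, 7 of the 8 calls stayed, Myh11 losing its call (-0.55, adjusted p = 0.111). Without that array 5.22% of all tested genes were lower and 3.74% higher. With only the 8 arrays of these groups in the fit, where the wide day 4 spread is not shared with other groups, 1 gene passed, Myocd (adjusted p = 0.0267), and the adjusted p of the other 9 lay between 0.0544 and 0.271.

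Set against naive cells, day 4 vehicle cultures had 6 of the 10 genes lower and 1 higher, where 11.5% of all tested genes were lower and 17.4% higher. The lower genes were Tagln (-1.59 ± 0.24, limma adjusted p = 3.78e-06), Cnn1 (-1.38 ± 0.36), Actg2 (-1.32 ± 0.29), Tpm2 (-1.18 ± 0.25), Lmod1 (-0.73 ± 0.22) and Acta2 (-0.66 ± 0.18). Hspb7 was the higher one, at 7.20, 7.95, 7.93 and 8.21 in day 4 vehicle cultures, against 6.50, 6.94, 6.39 and 6.73 in naive cells (1.18 ± 0.37, 2.27-fold, adjusted p = 0.012). Its 2 groups did not overlap, where 13.1% of all tested genes were higher without overlap. Without the day 4 vehicle array of pool 12, the calls of Acta2 (-0.31, adjusted p = 0.063), Cnn1 (-0.67, adjusted p = 0.0542) and Lmod1 (-0.43, adjusted p = 0.117) were lost, which left 3 lower and 1 higher. Without that array 11.3% of all tested genes were lower and 17.9% higher. Myh11 (-0.44 ± 0.21) had an adjusted p of 0.109, and 0.0341 with the pools as a block.

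Among related genes, 22 of 33 other contractile and actin-bundle genes fell between day 1 and day 4 of vehicle and 1 rose, with a median of -0.47. Those with the smallest adjusted p were Pdlim7 (-1.12 ± 0.15), Nexn (-1.35 ± 0.20) and Csrp1 (-0.63 ± 0.10), all proteins of the actin cytoskeleton. Of 19 SRF cofactors and regulators, 7 fell and none rose, among them the ternary complex factor Elk3 (-0.69 ± 0.11), Srf itself (-0.59 ± 0.10, adjusted p = 8.57e-05) and Tead1 (-0.81 ± 0.20). Mrtfa, 1 of the 2 myocardin-related factors, fell by 0.29 (SE 0.08, adjusted p = 0.0184). Mrtfb (0.01 ± 0.12) and Klf4, a repressor of smooth muscle genes (0.79 ± 0.44, adjusted p = 0.264), did not pass. Of 13 cytoskeletal actins and early SRF targets 6 fell, led by Ccn2 (-1.22 ± 0.27), and of 15 genes of the TGF-β input to the programme 7 fell and 1 rose, led by the ligands Tgfb2 (-1.27 ± 0.22) and Tgfb3 (-0.95 ± 0.20). Fewer genes passed without the day 4 vehicle array of pool 12, with 15 lower and 2 higher of the 33 contractile genes, 3 lower of the 19 regulators (Tead1 losing its call, adjusted p = 0.0594), 4 lower of the 13 early targets, and 3 lower and 1 higher of the 15 TGF-β genes. Between the same groups 5 of 12 adipocyte markers rose (list mean 6.79 to 8.60 over the day 4 arrays, against 6.55 to 6.86 over the day 1 arrays) and 2 of 11 osteoblast markers rose (7.45 to 9.16, against 7.55 to 8.04), or 8 and 4 without that array. The part of those cells in the fall was not tested.

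After 1 day, Rosi lowered most of the programme. Cnn1 read 8.21, 8.98, 9.35 and 9.05 in Rosi cultures, against 9.95, 10.06, 10.63 and 10.65 in vehicle cultures. Myocd read 4.33, 5.47, 4.94 and 5.01 in Rosi cultures, against 5.84, 6.02, 6.84 and 6.82 in vehicle cultures. Hspb7 read 5.87, 7.14, 7.00 and 6.82 in Rosi cultures, against 8.33, 8.86, 8.99 and 9.07 in vehicle cultures. Every Rosi array lay below every vehicle array for these 3 genes, and the same held for 9 of the 10, Des being the exception, where it held for 7.95% of all tested genes. In all 7 genes fell and none rose (3.08% of all tested genes fell and 4.16% rose): Hspb7 (-2.10 ± 0.37, 4.3-fold lower, limma adjusted p = 6.97e-05), Myocd (-1.44 ± 0.19, adjusted p = 3.64e-07), Cnn1 (-1.42 ± 0.36), Actg2 (-1.24 ± 0.29), Lmod1 (-1.15 ± 0.22), Tpm2 (-0.95 ± 0.25) and Tagln (-0.93 ± 0.24, adjusted p = 0.0101).

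Acta2 did not pass at day 1, although it read 11.80, 12.05, 12.12 and 12.03 in Rosi cultures, against 12.43, 12.48, 12.52 and 12.62 in vehicle cultures (-0.51 ± 0.18, adjusted p = 0.0728). The SDs of these groups were 0.14 and 0.08, under the pooled SD of 0.26 that sets its SE. Myh11 (-0.55 ± 0.21) had an adjusted p of 0.116, and 0.0244 with the pools as a block, and Des (-0.49 ± 0.21) had 0.199. All 10 differences were negative, in 4 of 4 pools each, with a median of -1.05 beside 0.00 over all tested genes. Leaving out pool 15, 19 or 20 from every group left 4 genes called, and leaving out pool 12 gave 8. With only the Rosi and vehicle arrays of that day in the fit, 9 genes fell.

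Of the 33 other contractile and actin-bundle genes, 20 fell with Rosi at day 1 and none rose (median -0.53), led by the LIM-domain proteins Csrp1 (-0.85 ± 0.10, adjusted p = 4.17e-08) and Pdlim5 (-0.77 ± 0.10) and by the myosin phosphatase inhibitor Ppp1r14a (-1.19 ± 0.19). Of the 19 SRF cofactors and regulators 4 fell and 2 rose, with the LIM-domain cofactor Fhl2 (-1.12 ± 0.18) and Srf (-0.59 ± 0.10, adjusted p = 4.12e-05) lower and Gata6, a transcription factor of the smooth muscle lineage, higher (1.26 ± 0.21). Mrtfa (-0.24 ± 0.08, adjusted p = 0.0861), Mrtfb (-0.02 ± 0.12) and Klf4 (-0.58 ± 0.44) did not pass. Of 13 cytoskeletal actins and early SRF targets 7 fell, among them the matricellular genes Ccn2 (-1.91 ± 0.27) and Ccn1 (-0.90 ± 0.18) and the immediate early gene Fosb (-1.03 ± 0.21). In the TGF-β list 5 of 15 fell and 1 rose, Tgfbr3 rising (1.09 ± 0.18) while Tgfb3 (-1.22 ± 0.20) and Skil (-1.25 ± 0.22) fell. In the same arrays 11 of 12 adipocyte markers rose (list mean 9.28 to 9.45 with Rosi, against 6.55 to 6.86 with vehicle), 2 of 11 osteoblast markers fell (6.89 to 7.47, against 7.55 to 8.04), and none of 12 macrophage markers passed (10.33 to 10.53, against 10.50 to 10.71). Stromal markers ran from 8.72 to 9.05 with Rosi, against 8.47 to 8.81 with vehicle, with 3 of 12 higher and none lower. Whether these shifts bear on the contractile genes was not tested.

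Of the 10 genes, only Myocd passed at day 1 with any of the other 4 chemicals. It read 5.31, 5.64, 5.37 and 5.42 in TBT cultures and 5.40, 5.65, 5.44 and 5.43 in MEHP cultures, against 5.84, 6.02, 6.84 and 6.82 in vehicle cultures, with no overlap in either comparison. Every TBT array lay below every vehicle array for 4 of the 10 genes and for 3.38% of all tested genes. With MEHP this held for 3 of the 10 genes and for 4.45%. Myocd fell with TBT (-0.94 ± 0.19, 1.92-fold lower, limma adjusted p = 0.00379), 1 gene of 10 where 0.0469% of all tested genes fell and 0.496% rose. It fell with MEHP as well (-0.90 ± 0.19, 1.86-fold lower, adjusted p = 0.00838), 1 gene of 10 where 0.161% fell and 0.362% rose. With the pools as a block Hspb7 passed beside it for MEHP, at 6.78, 7.67, 7.56 and 7.48 in MEHP cultures, against 8.33, 8.86, 8.99 and 9.07 in vehicle cultures (-1.44 ± 0.37, adjusted p = 0.00986 with the block and 0.0548 without). Leaving out pool 19 or pool 20 ended the Myocd calls of both chemicals, as did a fit of only the arrays compared (adjusted p = 0.107 for TBT and 0.104 for MEHP), in which Hspb7 passed for MEHP (adjusted p = 0.0155).

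With TPhP no gene passed in limma at day 1 (2 of 10 at an unadjusted p under 0.05, where 0.0335% of all tested genes fell and 0.181% rose). Myocd came nearest, at -0.72 ± 0.19 (adjusted p = 0.105). LG268 also gave none (1 of 10 at an unadjusted p under 0.05, where 0.0134% of all tested genes fell and 0.228% rose), with differences from -0.54 for Myocd to 0.02 for Lmod1. Over the 5 chemicals at day 1, 49 of 50 differences from vehicle were negative. The 5 comparisons share the same 4 vehicle arrays, so a shift in those arrays enters all of them.

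Pool by pool, the differences of the 6 genes Acta2, Tagln, Cnn1, Lmod1, Actg2 and Tpm2, grouped here after their values were seen, mostly had 1 sign at day 1. With TBT 24 of 24 differences from the vehicle array of the same pool were negative, with medians of -0.11, -0.26, -0.44 and -0.52 in pools 12, 15, 19 and 20. With MEHP 23 of 24 were negative, with medians of -0.13, -0.31, -0.24 and -0.33. With TPhP 18 of 24 were negative: the 6 genes were above vehicle in pool 12 (differences from 0.13 to 0.48) and below it in pools 15, 19 and 20 (medians -0.42, -0.41 and -0.41). With LG268 19 of 24 were negative, with medians between -0.16 and -0.01. These differences did not pass for any of the 6 genes, with or without the pools as a block. The 24 differences are not independent. The 6 genes moved together within groups (r between 0.67 and 0.92), and in each pool they share 1 vehicle array.

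**Figure D2:**
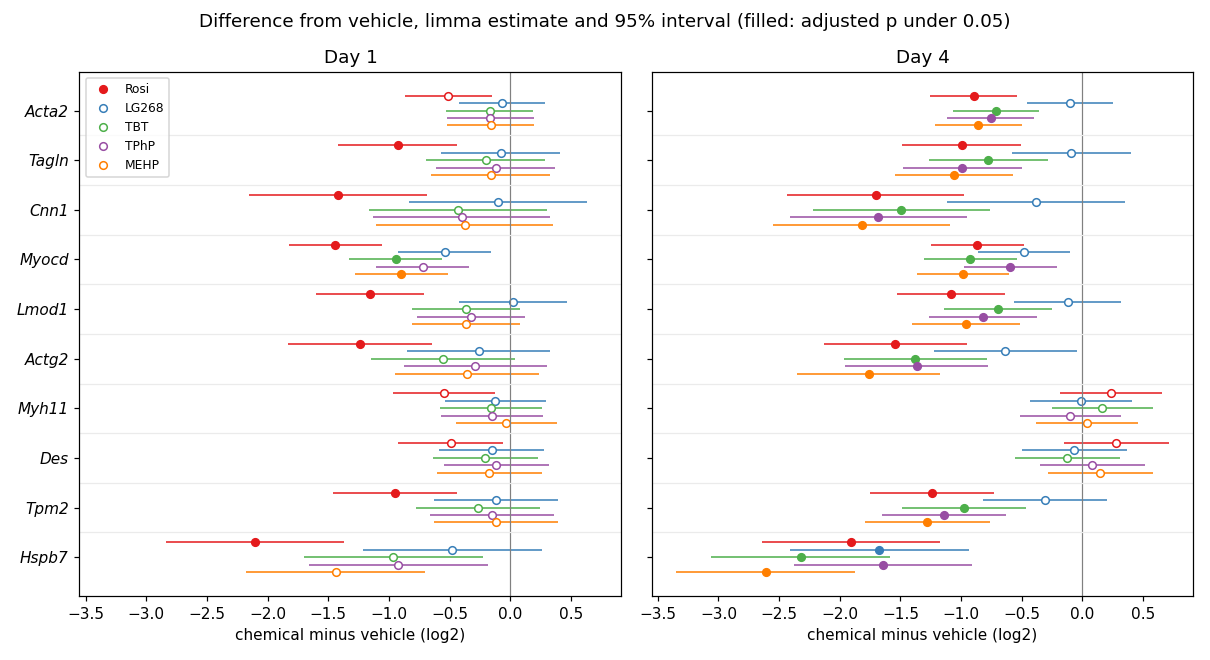
Difference from vehicle of the same day (horizontal axis, log2) for each gene (vertical axis) and chemical; points are limma estimates from 4 against 4 arrays, lines are 95% intervals and filled points passed an adjusted p of 0.05. At day 1 the filled points are 7 of Rosi and 1 each of TBT and MEHP, and at day 4 Rosi, TBT, TPhP and MEHP each have 8 and LG268 has 1.

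At day 4, Rosi, TBT, TPhP and MEHP each lowered the same 8 genes, Acta2, Tagln, Cnn1, Myocd, Lmod1, Actg2, Tpm2 and Hspb7. Cnn1 read 6.08, 6.08, 6.59 and 6.93 in Rosi cultures, 6.63, 7.11, 6.31 and 6.49 in TBT cultures, 7.02, 6.37, 6.54 and 5.86 in TPhP cultures and 6.01, 6.65, 6.17 and 6.40 in MEHP cultures. Against these stood 6.00, 8.02, 9.42 and 9.06 in vehicle cultures. Each treated group overlapped vehicle, and it did so through the vehicle array of pool 12, since every treated array lay below the other 3 vehicle arrays. The differences in Cnn1 were -1.70 ± 0.36 for Rosi (3.26-fold lower, limma adjusted p = 0.000114), -1.49 ± 0.36 for TBT (adjusted p = 0.00248), -1.68 ± 0.36 for TPhP (adjusted p = 0.000606) and -1.82 ± 0.36 for MEHP (3.53-fold lower, adjusted p = 0.000164). They were larger without the vehicle array of pool 12, at -2.41 ± 0.27 for Rosi (5.33-fold), -2.20 ± 0.27 for TBT (4.6-fold), -2.39 ± 0.27 for TPhP (5.24-fold) and -2.53 ± 0.27 for MEHP (5.77-fold).

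Acta2 read 10.67, 10.29, 10.81 and 10.80 in day 4 Rosi cultures and 10.40, 10.85, 10.65 and 10.82 in MEHP cultures, against 10.49, 11.50, 12.10 and 12.07 in vehicle cultures. Again only the pool 12 vehicle array fell within the treated range. Its differences were -0.90 ± 0.18 for Rosi, -0.71 ± 0.18 for TBT, -0.76 ± 0.18 for TPhP and -0.86 ± 0.18 for MEHP. Actg2 fell by 1.54 with Rosi, 1.38 with TBT, 1.37 with TPhP and 1.76 with MEHP (SE 0.29 each), and Tpm2 fell by 1.24, 0.98, 1.14 and 1.28 in the same order (SE 0.25). Tagln differences ran from -1.06 ± 0.24 with MEHP to -0.78 ± 0.24 with TBT, and those of Lmod1 from -1.09 ± 0.22 with Rosi to -0.70 ± 0.22 with TBT.

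Myocd and Hspb7 were the genes whose groups separated most cleanly at day 4. Myocd read 4.22, 3.79, 4.33 and 4.21 in Rosi cultures, 3.72, 4.19, 4.15 and 4.26 in TBT cultures, 4.60, 4.27, 4.45 and 4.34 in TPhP cultures and 4.34, 4.13, 3.81 and 3.80 in MEHP cultures, against 4.94, 4.70, 5.18 and 5.20 in vehicle cultures, with no overlap for any of the 4. Several of these treated arrays lie near or under the table median of 4.05. Groups did not overlap for 3 of the 10 genes with Rosi, 2 with TBT, 1 with TPhP and 3 with MEHP. Of all tested genes 17.9%, 9.23%, 4.94% and 6.68% were lower without overlap, in the same order. Hspb7 read 5.54, 6.55, 4.77 and 5.14 in TBT cultures and 4.83, 6.19, 4.67 and 5.16 in MEHP cultures, against 7.20, 7.95, 7.93 and 8.21 in vehicle cultures. Its falls were 5-fold for TBT (-2.32 ± 0.37, limma adjusted p = 8.03e-06), 6.12-fold for MEHP (-2.61 ± 0.37, adjusted p = 5.62e-07), 3.75-fold for Rosi (-1.91 ± 0.37) and 3.13-fold for TPhP (-1.64 ± 0.37). Only with TPhP did Hspb7 overlap vehicle, through the TPhP array of pool 12 at 7.54.

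Myh11 and Des did not pass with any chemical at day 4. Myh11 read 5.88, 4.79, 5.85 and 5.99 in Rosi cultures, against 4.95, 5.06, 5.96 and 5.61 in vehicle cultures, and its differences over the 5 chemicals lay between -0.10 and 0.23. Those of Des lay between -0.13 and 0.28. With an SE of 0.21, the 95% interval for Rosi ran from -0.19 to 0.65 for Myh11 and from -0.15 to 0.71 for Des, so changes within those bounds were not resolved. Without the vehicle array of pool 12 these intervals ran from -0.36 to 0.53 and from -0.33 to 0.58, and neither gene passed with any chemical.

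These 8 genes of 10 stood beside large changes over all tested genes. Rosi lowered 27.7% and raised 21.3% of them, TBT lowered 9.42% and raised 10.6%, TPhP lowered 7.94% and raised 11%, and MEHP lowered 11.7% and raised 12.1%. The median difference of the 10 genes was -1.04 with Rosi, -0.85 with TBT, -0.90 with TPhP and -1.02 with MEHP, beside medians between -0.05 and -0.03 over all tested genes. No gene of the 10 was higher with any of the 5 chemicals on either day, and 44 of the 50 differences at day 4 were negative.

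How the pools bore on the day 4 result can be read from the same 6 genes as at day 1, grouped after their values were seen. In pool 12 the median difference from vehicle was 0.06 for Rosi, 0.37 for TBT, 0.84 for TPhP and -0.20 for MEHP. In pool 15 it was -1.31, -0.81, -1.21 and -0.75 in the same order of chemicals, in pool 19 -1.70, -1.72, -1.93 and -1.93, and in pool 20 -1.52, -1.46, -2.00 and -1.75. All 6 genes lay below vehicle in pools 19 and 20 for each of these chemicals, and in pool 12 none did for TBT or TPhP. Without the vehicle array of pool 12, all 8 calls of each of the 4 chemicals remained, and the median difference of the 10 genes was -1.40 with Rosi, -1.13 with TBT, -1.26 with TPhP and -1.37 with MEHP. Without that array Rosi lowered 26.7% of all tested genes, TBT 9.23%, TPhP 8.87% and MEHP 12.4%. They raised 20.6%, 9.19%, 9.95% and 11.6% in the same order. With only the arrays of the 2 groups in the fit, 5 genes passed for Rosi (Myocd, Lmod1, Actg2, Tpm2 and Hspb7), 2 for TBT (Myocd and Hspb7), 1 for TPhP (Myocd) and 2 for MEHP (Myocd and Hspb7). Leaving out pool 19 or pool 20 from every group left 2 and 3 calls for TBT, 0 and 0 for TPhP, and 6 each for MEHP, while Rosi had 8 whichever pool was left out.

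**Figure D3:**
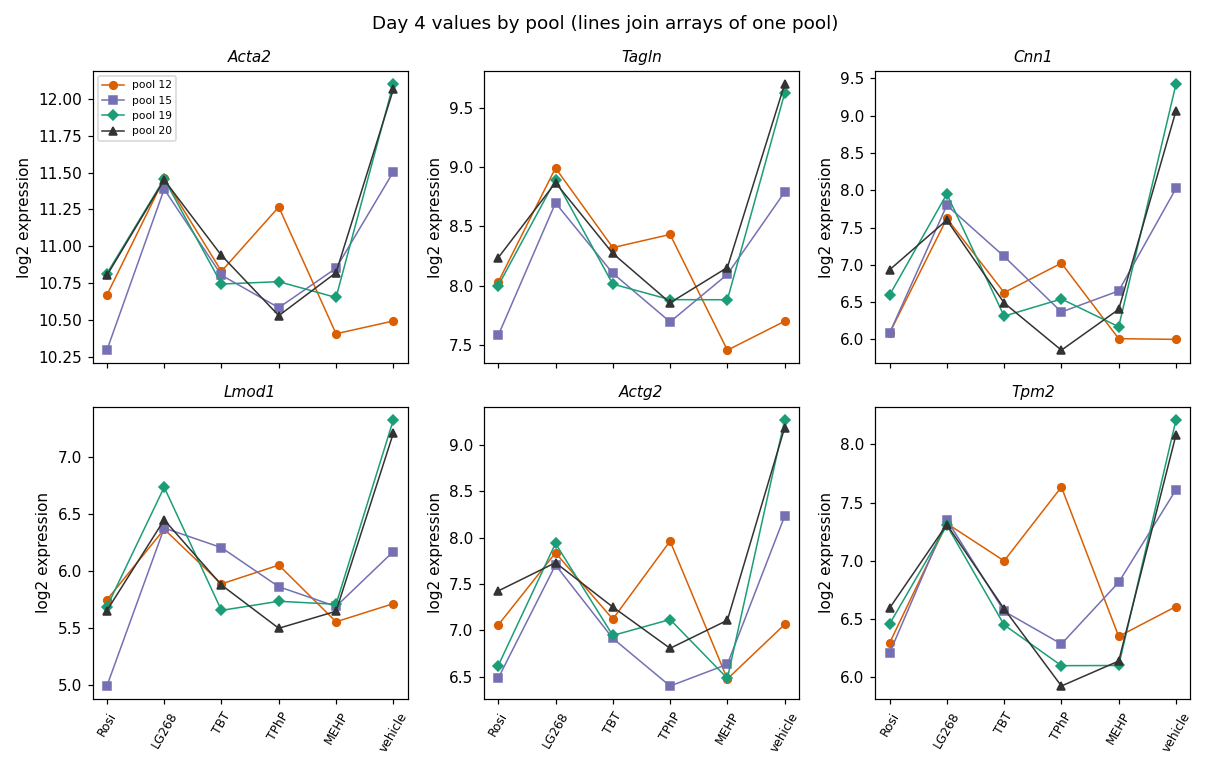
Log2 level (vertical axis) of Acta2, Tagln, Cnn1, Lmod1, Actg2 and Tpm2 in the day 4 groups (horizontal axis). Each group has 1 array of each pool, and lines join the arrays of a pool. In pools 15, 19 and 20 the vehicle array lies above most treated arrays, and in pool 12 it lies at the level of Rosi and MEHP, with 6.00 for Cnn1 in vehicle beside 6.08 in Rosi and 6.01 in MEHP.

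LG268 was not compared directly with TBT, TPhP or MEHP. Against vehicle at day 4, 1 gene of 10 fell with it, where 2.26% of all tested genes fell and 4.21% rose. That gene was Hspb7, at 6.21, 6.84, 5.81 and 5.73 in LG268 cultures, against 7.20, 7.95, 7.93 and 8.21 in vehicle cultures, with no overlap (-1.67 ± 0.37, 3.19-fold lower, limma adjusted p = 0.00247). Groups did not overlap for 2 of the 10 genes, where 5.69% of all tested genes were lower without overlap. Cnn1 read 7.62, 7.80, 7.95 and 7.60 with LG268 (-0.39 ± 0.36, adjusted p = 0.616), and Acta2 read 11.46, 11.39, 11.46 and 11.45 (-0.10 ± 0.18). These LG268 arrays lay close together, between the vehicle array of pool 12 and the vehicle arrays of pools 15, 19 and 20. Without the pool 12 vehicle array Acta2 (-0.45, adjusted p = 0.0295), Cnn1 (-1.09, adjusted p = 0.00926) and Actg2 (-1.09, adjusted p = 0.00642) passed as well, giving 4 lower. Of all tested genes 2.19% were then lower and 2.94% higher. Without pool 12 in any group 5 passed, and without pool 19 or pool 20 none did.

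Of the 33 other contractile and actin-bundle genes at day 4, Rosi lowered 23 and raised 1, TBT 13 and 4, TPhP 17 and 1, MEHP 20 and 1, and LG268 none and 3. Under Rosi the smallest adjusted p belonged to Itga7, a laminin receptor subunit of muscle, which rose (2.81 ± 0.23), followed by falls in Smtn, smoothelin (-1.29 ± 0.14), and Csrp1 (-0.91 ± 0.10). Itga7 also rose with TBT (0.66 ± 0.23), TPhP (1.58 ± 0.23) and MEHP (1.60 ± 0.23). Csrp1 fell with TBT (-0.63 ± 0.10), TPhP (-0.57 ± 0.10) and MEHP (-0.69 ± 0.10), while LG268 raised the intermediate filament gene Synm (0.94 ± 0.16). Without the vehicle array of pool 12 the counts lowered and raised were 23 and 1 for Rosi, 20 and 2 for TBT, 22 and 1 for TPhP, 23 and 1 for MEHP, and 3 and 1 for LG268, with Itga7 no longer passing for TBT (0.55 ± 0.25, adjusted p = 0.124) and Csrp1 passing for LG268 (-0.37 ± 0.10, adjusted p = 0.024).

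The regulators moved less evenly at day 4. Rosi lowered 10 and raised 3 of the 19 SRF cofactors and regulators, Fhl2 falling (-1.55 ± 0.18) and Foxo1, a forkhead transcription factor, rising (1.66 ± 0.18). Foxo1 also rose with TBT (1.23 ± 0.18), TPhP (1.13 ± 0.18), MEHP (1.08 ± 0.18) and LG268 (0.87 ± 0.18). Srf did not pass with any of the 5 chemicals at day 4, with differences from -0.13 to -0.05. Mrtfa fell with Rosi (-0.69 ± 0.08, limma adjusted p = 4.74e-09) and did not pass with TBT (-0.02 ± 0.08), TPhP (-0.21 ± 0.08), MEHP (-0.22 ± 0.08, adjusted p = 0.0535, or 0.0417 with the pools as a block) or LG268 (0.16 ± 0.08). Mrtfb (-0.30 ± 0.12) and Klf4 (-1.35 ± 0.44) fell with Rosi, and without the vehicle array of pool 12 Mrtfb lost its call (-0.16 ± 0.12, adjusted p = 0.269). With TBT, Klf4 had an adjusted p of 0.0511, and 0.00316 with the block (-1.19 ± 0.44), and with LG268 it had 0.236, and 0.0476 with the block (-0.90 ± 0.44).

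Early SRF targets and the TGF-β list fell in part at day 4. Of 13 cytoskeletal actins and early SRF targets Rosi lowered 8, TBT 4, TPhP 6 and MEHP 5, and none rose. Lima1 (-1.14 ± 0.13), an actin-bundling protein, led with Rosi, Actg1 (-0.43 ± 0.10), a cytoskeletal actin, with TBT, Tuft1 (-0.82 ± 0.14) with TPhP and Ccn1 (-1.06 ± 0.18) with MEHP. Of 15 TGF-β genes Rosi lowered 10 and raised 1, TBT lowered 3 and raised 1, TPhP lowered 7 and MEHP 9. Without the vehicle array of pool 12 the early targets lowered were 8, 4, 6 and 7 in that order of chemicals, and the TGF-β genes lowered were 11, 6, 8 and 8. Tgfbr2, the ligand-binding receptor, fell by 1.11 with Rosi (SE 0.09), and Lox, which crosslinks collagen, fell with all 4 (-1.27 ± 0.14 with Rosi, -0.67 ± 0.14 with TBT, -0.74 ± 0.14 with TPhP and -0.83 ± 0.14 with MEHP).

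Markers of other cells were also called in the same day 4 arrays. Of all tested genes, Rosi raised 21.3% and lowered 27.7%, TBT 10.6% and 9.42%, and TPhP 11% and 7.94%. MEHP raised 12.1% and lowered 11.7%, and LG268 4.21% and 2.26%. Adipocyte markers rose in 12 of 12 with Rosi, TPhP and MEHP, 11 with TBT and 6 with LG268. Their list mean was 10.48 to 10.93 with Rosi, 8.76 to 9.49 with LG268, 9.70 to 10.38 with TBT, 10.03 to 10.91 with TPhP and 9.93 to 10.85 with MEHP, against 6.79 to 8.60 with vehicle. Stromal markers fell in 9 of 12 with Rosi (list mean 7.90 to 8.45, against 8.71 to 9.54 with vehicle) and in 5 of 12 each with TBT, TPhP and MEHP. Osteoblast markers fell in 9 of 11 with Rosi (6.12 to 6.98, against 7.45 to 9.16 with vehicle), 8 with TBT and MEHP, 7 with TPhP and 2 with LG268. Endothelial markers rose in 2 of 10 with Rosi and LG268, 6 with TBT and 5 with MEHP, and 6 of 9 neutrophil markers fell with LG268 and 3 with TBT. Rosi also lowered all 12 macrophage markers (9.12 to 10.38, against 10.47 to 10.80 with vehicle). The 9 tested pericyte and mural markers moved both ways, with 2 lower and 2 higher for Rosi (list mean 6.23 to 6.89, against 6.37 to 6.65 with vehicle) and 2 lower and 4 higher for LG268. For Rosi the endothelial and pericyte counts lay near its shares of all tested genes. Without the vehicle array of pool 12 the calls of Rosi, TBT, TPhP and MEHP in adipocyte and osteoblast markers had the same counts, whereas LG268 had 4 adipocyte markers higher, 5 osteoblast markers lower, no endothelial or neutrophil marker called, and 1 pericyte marker higher. Neutrophil markers lowered by TBT were then 1, and endothelial markers raised were 5 with TBT and 3 with MEHP. The part of these cells in the contractile result was not tested.

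Markers of skeletal and cardiac muscle, which share Des, Hspb7 and Myocd with smooth muscle, had a mean of 3.95 to 4.37 over the 52 arrays, close to the table median. Myh1, Myh3, Myh7, Ttn and Myf6 lay under that median on all 52 arrays, as did the cardiac actin Actc1. Of the same list, 7 markers lay above it on all 52 arrays, namely the cardiac transcription factor Nkx2-5 (median 6.11), the troponins Tnnc1 (5.63), Tnnt3 (5.05), Tnnt2 (4.56) and Tnni3 (4.52), the myogenic factor Myog (5.21) and myoglobin, Mb (4.69). At most 1 of the 13 tested markers passed in any of the comparisons described.

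Whether a response at day 4 differed from that at day 1 was tested as an interaction. For Rosi 2 of 10 genes passed, where 30% of all tested genes did, and both were genes with small ranges: Myh11 (0.78 ± 0.29, limma adjusted p = 0.0391) and Des (0.77 ± 0.30, adjusted p = 0.0499), whose Rosi differences were -0.55 and -0.49 at day 1 and 0.23 and 0.28 at day 4. Without the day 4 vehicle array of pool 12 both calls were lost (adjusted p = 0.109 for Myh11 and 0.133 for Des), and Acta2 (-0.74, adjusted p = 0.00122) and Cnn1 (-0.99, adjusted p = 0.0358) passed in their place. Of all tested genes 15.9% then had a lower response at day 4 and 13.8% a higher one. For MEHP 2 of 10 passed, where 6.36% of all tested genes did: Actg2 (-1.40 ± 0.41, adjusted p = 0.0312) and Tpm2 (-1.16 ± 0.36, adjusted p = 0.0416). Cnn1 (-1.44 ± 0.51, adjusted p = 0.0869) passed with the pools as a block (0.0469), and 6 genes passed without the pool 12 vehicle array. Without that array the MEHP response of 4.22% of all tested genes was lower at day 4 and of 4.37% higher. Leaving out pool 19 or 20 ended the calls of both chemicals, and leaving out pool 15 ended those of MEHP.

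For TBT, TPhP and LG268 no interaction of the 10 passed in limma, with 3, 5 and 1 of them at an unadjusted p under 0.05. The share of all tested genes that passed was 1.77% for TBT, 4.49% for TPhP and 0.0805% for LG268. Without the pool 12 vehicle array 4 genes passed for TBT and 5 for TPhP, with Cnn1 at -1.77 (adjusted p = 0.00498) and -1.99 (adjusted p = 0.000759), and none for LG268. Of all tested genes 1.44% were then lower and 1.29% higher for TBT, and 2.49% and 3.75% for TPhP. For LG268 these shares were 0.0268% and 0.0537%. Without the TPhP array of pool 12, 3 passed for TPhP.

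The chemicals were also set against Rosi of the same day. LG268 and Rosi were both at 100 nM, whereas TBT was at 80 nM and the doses of TPhP and MEHP are not in the labels. At day 1 LG268 cultures had 7 of 10 genes higher than Rosi cultures, where 6.99% of all tested genes differed in either direction. Hspb7 read 7.74, 8.66, 8.45 and 8.48 with LG268, against 5.87, 7.14, 7.00 and 6.82 with Rosi (1.63 ± 0.37, 3.08-fold, limma adjusted p = 0.00251), and Lmod1 differed by 1.18 ± 0.22 (adjusted p = 0.000287). For both genes the groups did not overlap, as for 7 of the 10 genes, where 7.36% of all tested genes were higher without overlap. Leaving out pool 15, 19 or 20 left 3, 3 and 1 of these calls.

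For TBT 1 of 10 was higher than with Rosi at day 1 (2.61% of all tested genes differed), for TPhP 2 (2.32%) and for MEHP 1 (1.88%). Lmod1 was among the genes of the 10 called for each chemical, at 0.79 ± 0.22 for TBT (adjusted p = 0.0367), 0.83 ± 0.22 for TPhP (adjusted p = 0.0283) and 0.79 ± 0.22 for MEHP (adjusted p = 0.0492), and Myocd was the other gene for TPhP (0.72 ± 0.19, adjusted p = 0.0266). With the pools as a block the counts were 2, 5 and 2, Hspb7 passing for TBT (adjusted p = 0.0295), Tagln, Actg2 and Hspb7 for TPhP (adjusted p = 0.028, 0.0315 and 0.0256) and Tagln for MEHP (adjusted p = 0.0436). All 10 differences from Rosi were positive for each of the 4 chemicals at day 1. Leaving out any of the 4 pools ended the TBT call, leaving out pool 15, 19 or 20 ended the MEHP call, and leaving out pool 15 left 1 call for TPhP and any other pool none.

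At day 4 LG268 cultures had 6 of 10 genes higher than Rosi cultures, where 47.8% of all tested genes differed. They were Cnn1 (1.32 ± 0.36, limma adjusted p = 0.00228), Lmod1 (0.96 ± 0.22), Tpm2 (0.94 ± 0.25), Actg2 (0.91 ± 0.29), Tagln (0.90 ± 0.24) and Acta2 (0.79 ± 0.18, adjusted p = 0.000217), each without overlap between the groups, where 21.7% of all tested genes were higher without overlap. This comparison uses no vehicle array. Hspb7, which fell with both, read 6.21, 6.84, 5.81 and 5.73 with LG268, against 5.46, 6.44, 5.76 and 6.01 with Rosi (0.23 ± 0.37, 95% interval -0.50 to 0.97).

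TBT, TPhP and MEHP gave no gene of the 10 that differed from Rosi at day 4 in limma (0 at an unadjusted p under 0.05 for each), although 38.1%, 28.2% and 26.1% of all tested genes did. For Cnn1 the 95% interval of the difference from Rosi ran from -0.52 to 0.94 for TBT, -0.71 to 0.76 for TPhP and -0.85 to 0.62 for MEHP, and for Acta2 from -0.17 to 0.54, -0.22 to 0.50 and -0.32 to 0.39. Differences inside these bounds were not resolved. Des was lower with TBT than with Rosi when the pools were a block (-0.41, adjusted p = 0.0424, against 0.135 without the block).

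How far the 10 genes moved together was described by Pearson's r, with no test, since the arrays share pools and a common normalization. Over the 13 group means, the 15 pairs of Acta2, Tagln, Cnn1, Lmod1, Actg2 and Tpm2 had r between 0.98 and 1.00. These genes were grouped after their values were seen, so their close r follows in part from that choice. Within groups, over 52 arrays with the group means removed, the same pairs had r between 0.67 and 0.92. Myocd followed the mean of the other 9 over the groups (r = 0.97) but less within them (r = 0.38), and Hspb7 gave 0.87 and 0.35. Des followed least over the groups (0.39), and Myh11 gave 0.84. The array of pool 12 in the day 4 vehicle group contributes to the values within groups.

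**Figure D4:**
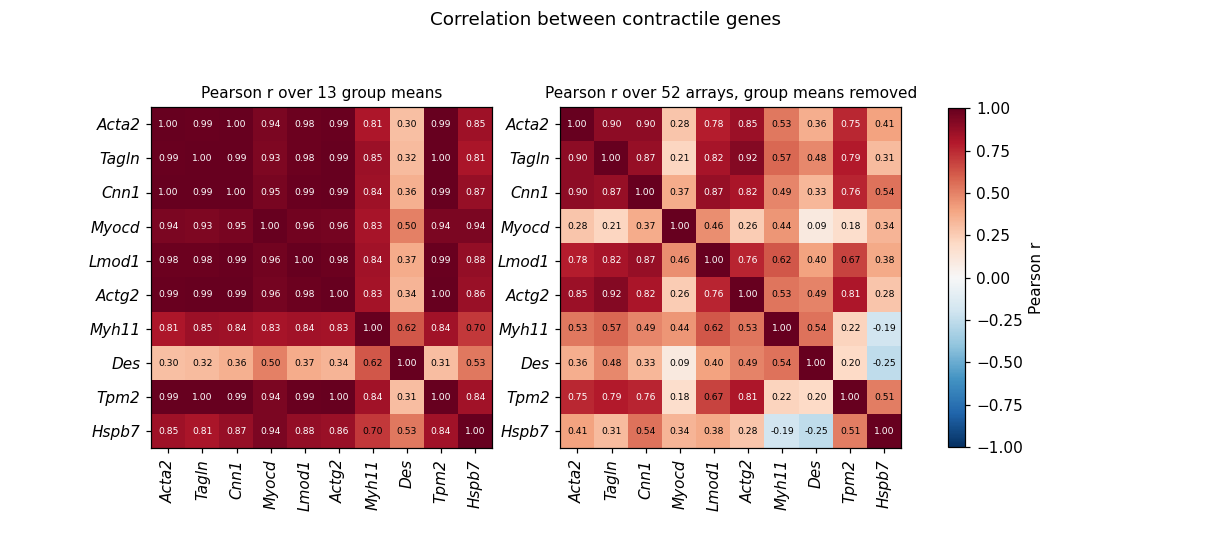
Pearson r between the contractile genes (rows and columns, same genes) over 13 group means on the left and over 52 arrays with group means removed on the right, from blue at -1 to red at 1. Acta2, Tagln, Cnn1, Lmod1, Actg2 and Tpm2, grouped after their values were seen, form a block of at least 0.98 on the left and at least 0.67 on the right. Des is the least correlated row on the left.

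Outside the list, the 5 tested genes most like the mean of the 10 over the 13 groups were Ncs1, a calcium sensor (r = 0.993), Jph2, which joins muscle membranes (0.99), Mical2, an actin-modifying enzyme (0.989), Csrp2, a LIM-domain protein of smooth muscle (0.989), and Foxc2, a forkhead factor (0.988). Their group means were highest in day 1 vehicle cultures and lowest in day 4 MEHP or, for Mical2, TBT cultures. The 5 most opposite were Phkb (-0.977), the adipokine gene Retn (-0.975), Cd1d1 (-0.971), Pcmtd1 (-0.971) and Lgals4 (-0.97). With so many genes and 13 points, values of this size describe these groups alone.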

How the data were processed

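RNA was hybridised to 52 arrays, 4 for each of 13 groups. The authors deposited log2 expression values of 41345 probe sets in a single file, and the submitters' processing notes list R 3.3.1 and oligo. How background was corrected and arrays were normalized is not given in the sources used here. Array medians ran from 3.97 to 4.15. Precision is limited by there being 4 arrays in a group. Of the probe sets, 23521 carried 1 symbol, 1814 several and 16010 none.

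Only probe sets of 1 symbol were used, for 22180 genes, with the highest mean standing for a gene with several. Des had 1 more probe set, shared with another symbol, which was not used. Genes with at least 4 arrays above the table median (4.05) were tested, 14911 in all. Groups were compared with limma 3.58.1 in R 4.3.3 (group means, all 52 arrays in 1 fit, residual degrees of freedom 39 and prior 3.45). Two-sided p-values were adjusted by Benjamini and Hochberg's method over every tested gene, and 0.05 was the threshold. The 26 comparisons were vehicle over time, each chemical against vehicle, the day 4 minus day 1 difference of each response, and each chemical against Rosi.

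Per the labels a pool of animals is 1 experiment, so equal numbers in the titles mark arrays of the same animals. After group means were removed, same-number pairs of arrays had a median correlation of 0.219, 233 of 312 pairs exceeded 0.1, and 43 of 52 arrays correlated best with their own number. The fit with the pool as replicate block is given where it changed a call.

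The members and all other lists were chosen with earlier results of these data known. Named genes were the members, the 3 genes at most of each list that had the lowest adjusted p, Srf, Mrtfa, Mrtfb and Klf4, and the 5 genes most and least like the members. No test was made on a list. The limma step was checked on simulated data. Alternatives were the pool block, only the arrays compared, cyclic loess, the mean of probe sets, no filter or a stricter one (75th percentile, 6.34), each pool left out, and 2 fits without 1 array, chosen after seeing the data. Promoter windows and gene names came from RefSeq (GRCm38.p6). Python 3.11.15, pandas 2.3.3, numpy 2.4.6, matplotlib 3.10.9 and version 1.17.8 of data.table were used.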

Additional observations from a re-analysis of the deposited data

Results flagged for a closer look

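Within groups of 4 arrays, 5 of 130 combinations of gene and group held a value far from the other 3 by Dixon's criterion (0.829), where chance alone gives about 1 in 20. Acta2 in day 4 LG268 cultures was 11.39 in pool 15, against 11.45 to 11.46 in the other pools, a small gap in a tight group. Cnn1 in day 1 LG268 cultures was 9.79 in pool 12, against 10.30 to 10.40. Myocd in day 1 MEHP cultures was 5.65 in pool 15, against 5.40 to 5.44. In day 4 Rosi cultures of pool 15, Lmod1 was 4.99, against 5.65 to 5.75, and Myh11 was 4.79, against 5.85 to 5.99. The day 4 vehicle array of pool 12 did not meet that criterion for any of the 10 genes.

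The responses of 4 genes differed between days by the interaction in limma. The Rosi response of Myh11 was higher at day 4 than at day 1 by 0.78 on the log2 scale (SE 0.29, adjusted p = 0.0391), and that of Des by 0.77 (SE 0.30, adjusted p = 0.0499). The MEHP response of Actg2 was lower at day 4 than at day 1, with a difference of -1.40 (SE 0.41, adjusted p = 0.0312), and so was that of Tpm2, with -1.16 (SE 0.36, adjusted p = 0.0416). The first pair of calls was lost without the day 4 vehicle array of pool 12, whereas both MEHP calls stayed.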

How the results depend on the processing

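Counts below are of the 10 genes called, with the count of the fit described above in brackets. Over 2672 single-gene values under these alternatives, none changed sign with a call, 151 lost a call and 84 gained one. A further 18, called neither way, moved by more than the pooled SD, 10 without pool 12, 7 without the day 4 vehicle array of pool 12 and 1 without the day 4 TPhP array of pool 12. With only the arrays compared in the fit, the counts were 4 for day 1 vehicle over naive (2), 3 for day 4 vehicle over naive (7) and 1 for day 4 over day 1 vehicle (8). They were 0 for TBT (1) and 1 for TPhP (0) at day 1, 5 for Rosi, 2 for TBT, 1 for TPhP and 2 for MEHP at day 4 (8 each), 0 for the Rosi and MEHP day differences (2 each), and 6 for TBT (1), 4 for TPhP (2) and 6 for MEHP (1) over Rosi at day 1. The stricter filter left 7 of the genes and did not test Myocd, Myh11 or Des. It gave 1 for day 1 vehicle over naive, 0 for TBT at day 1 and 0 for the Rosi day difference. The calls missing from these counts were those of genes it did not test. Without a filter the Rosi day difference had 0, that of MEHP 1, and TBT and MEHP over Rosi at day 1 had 0 each. The mean of probe sets gave 1 for the Rosi day difference and 0 for MEHP over Rosi at day 1. Cyclic loess gave 2 for MEHP over vehicle and 0 for MEHP over Rosi, both at day 1. With the pool as replicate block, MEHP over vehicle at day 1 had 2, TBT, TPhP and MEHP over Rosi at day 1 had 2, 5 and 2, and TBT over Rosi at day 4 had 1. Beyond the single genes named beside their results, the block changed no call of the 10 genes.

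Without the day 4 vehicle array of pool 12, chosen after seeing the data, the counts were 4 for day 4 vehicle over naive, 4 for LG268 at day 4, and 4, 5 and 6 for the day differences of TBT, TPhP and MEHP. The shares of all tested genes without that array stand beside the results. Without the day 4 TPhP array of pool 12, also chosen after seeing the data, the TPhP day difference had 3.

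Leaving out 1 pool from every group gave counts from 2 to 4 for day 1 vehicle over naive, 6 to 7 for day 4 vehicle over naive and 7 to 8 for day 4 over day 1 vehicle. At day 1 they ran from 4 to 8 for Rosi and from 0 to 1 for TBT, TPhP and MEHP, with 0 for LG268. At day 4 they were 8 for Rosi, 0 to 5 for LG268, 2 to 8 for TBT, 0 to 8 for TPhP and 6 to 8 for MEHP. Day differences ran from 0 to 2 for Rosi, from 0 to 5 for TBT, TPhP and MEHP, and were 0 for LG268. Over Rosi at day 1 they ran from 1 to 8 for LG268, were 0 for TBT, and ran from 0 to 1 for TPhP and MEHP, and over Rosi at day 4 from 5 to 7 for LG268. Where no cause is named, the cause was not tested. Limits were the 4 arrays in each group, the wide spread of day 4 vehicle, most of all in its pool 12 array, and low probe signals. These were near the table median for some arrays of Myocd, and ran from 4.43 to 5.76 for Des and from 4.79 to 6.43 for Myh11.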
